A study of Mus musculus with 8 samples.

Results

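The 10 genes examined encode receptor proteins by which macrophages bind antibody-coated particles, modified lipoproteins, dying cells and fungi, and their transcripts were measured in RAW264.7 cells. This mouse line behaves like macrophages and was derived from a tumor induced by a virus. The 10 genes were taken by symbol from the 22013 genes of the count table, and all 10 were found. They are Fcgr1, Fcgr2b, Fcgr3, Fcgr4, Fcer1g, Msr1, Cd36, Mertk, Axl and Clec7a. PBS was given to the cells of 4 libraries, and recombinant FSTL1 (rFSTL1), a secreted glycoprotein, at 100 ng/mL for 24 h to those of the other 4. The time in PBS is not stated in the labels. The study asked how FSTL1 from liver endothelium acts on macrophages, and a cell line in culture holds no liver tissue. The labels do not say whether the libraries came from separate cultures, so the p-values measure only the spread between these libraries. The libraries held 15062026 to 20234472 counts. Counts were scaled by library size to CPM, with TMM factors, and 10748 genes passed the expression filter and were compared with edgeR.

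Fc gamma receptors bind the constant part of IgG. Fcgr1, Fcgr3 and Fcgr4 encode activating receptors, which signal through the common gamma chain encoded by Fcer1g. Its cytoplasmic tyrosine motif, the ITAM, recruits the kinase Syk once it is phosphorylated. Fcgr2b encodes the inhibitory receptor, which carries its own inhibitory motif, and the balance between the activating and inhibitory arms sets how strongly a macrophage answers immune complexes. Msr1 and Cd36 encode scavenger receptors for modified lipoproteins. Mertk and Axl encode receptor tyrosine kinases of the TAM family, which bind dying cells through bridging proteins, Gas6 for both and protein S for Mertk. Clec7a encodes dectin-1, a C-type lectin for fungal beta-glucan.

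The libraries carried macrophage transcripts. All 8 macrophage markers listed were tested, and their summed level was 4651 to 4798 CPM under PBS and 4700 to 4879 CPM under rFSTL1. Csf1r, the receptor for the growth factor CSF1, had the highest CPM of them under PBS, and ran from 1210 to 1314 CPM over the 8 libraries, while Adgre1, which encodes F4/80, had 2.74 to 4.43 CPM. Markers of T cells, B cells, epithelial cells and neutrophils summed to at most 0.359 CPM in any library, led under PBS by Cd4, Cd79a, Krt5 and S100a8. Fibroblast markers reached 1.34 CPM, led by Dcn, endothelial markers 3.34 CPM, led by Vwf, and dendritic cell markers 2.93 CPM, led by Zbtb46. On the first principal component of all genes tested, which held 28.8% of the variance, rFSTL1 replicates 3 and 4 lay apart from the other 6 libraries. On the second, which held 18.8% of the variance, rFSTL1 replicate 2 stood apart from the other 7 libraries. It was the highest of all 8 for Fcgr1, Fcgr3, Fcgr4 and Fcer1g, and the log2 fold changes of these genes are also given without it. In bulk libraries, fewer cells with a transcript and less of it per cell cannot be told apart.

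Fcgr2b, Fcgr3, Fcgr4 and Fcer1g lie close together on mouse chromosome 1. In GENCODE M21 on GRCm38, Fcgr2b spans chr1:170958617-170976547 and Fcgr3 spans chr1:171051174-171064935, both on the minus strand. Fcgr4 lies between them at chr1:171018920-171029761 on the plus strand, and Fcer1g lies at chr1:171229572-171234365 on the minus strand. Of the other genes, Fcgr1 lies at chr3:96282909-96293969, Cd36 at chr5:17781690-17888801, Axl at chr7:25757273-25788705, Clec7a at chr6:129461591-129472779 and Msr1 at chr8:39581685-39642673 on the minus strand. Mertk lies at chr2:128698956-128802894 on the plus strand. The table lists Fcer1g as ENSMUSG00000058715, Fcgr2b as ENSMUSG00000026656 and Fcgr3 as ENSMUSG00000059498. The build used for the counts is not given in the sources used here, so these positions describe the annotation and not the count table. Fcgr2b and Fcgr3 are near copies over part of their coding sequence. The most alike pair of coding exons of equal length is printed from the GENCODE transcripts, because reads from such a stretch can match both genes. They are exon 6 of the Fcgr2b transcript with the longest coding sequence, at chr1:170966446-170966700, and exon 4 of that of Fcgr3, at chr1:171053939-171054193, both read along the minus strand. Capitals mark the bases that differ.

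Fcgr2b: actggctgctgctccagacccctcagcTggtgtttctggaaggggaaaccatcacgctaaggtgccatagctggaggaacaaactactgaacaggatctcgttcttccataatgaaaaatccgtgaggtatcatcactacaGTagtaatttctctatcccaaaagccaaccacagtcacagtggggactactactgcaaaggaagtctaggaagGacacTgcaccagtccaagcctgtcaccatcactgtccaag

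Fcgr3: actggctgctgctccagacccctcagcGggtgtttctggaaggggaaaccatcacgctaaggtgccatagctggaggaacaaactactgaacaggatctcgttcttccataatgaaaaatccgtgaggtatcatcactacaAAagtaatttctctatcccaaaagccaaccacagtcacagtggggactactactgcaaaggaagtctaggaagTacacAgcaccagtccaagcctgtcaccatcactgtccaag

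The exons are 255 bases long and differ at 5 bases, an identity of 98.0%, and the longest stretch without a difference is 113 bases. Exon 4 of Fcgr4, of the same length, was identical to the Fcgr2b exon at 55.7% of bases. Over all coding transcripts of each gene, 166 windows of 50 bases occurred in both Fcgr2b and Fcgr3. These were 10.2% of the windows of Fcgr3 and 4.48% of those of Fcgr2b. Counting windows shared with any of 146 genes, 10.7% of those of Fcgr2b were not its own. The other 8 of the 10 genes shared no window of 50 bases with any other gene.

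Under PBS, the gamma chain was the most abundant of the 10 transcripts per unit of length. On the TPM scale, which divides counts by exon length, Fcer1g had a level of 378 ± 11.3 (SD, n = 4), higher than 96.8% of the genes tested. Msr1 followed with 86.6 ± 1.93 TPM (SD, n = 4). Fcgr1 had 46.4 ± 1.51 TPM, Fcgr2b 42.5 ± 1.71 TPM and Fcgr3 26.8 ± 3.04 TPM (SD, n = 4 each). The other 5 genes were low. Axl had 3.50 ± 0.708 TPM, Fcgr4 1.23 ± 0.724 TPM, Cd36 0.742 ± 0.150 TPM and Clec7a 0.371 ± 0.285 TPM (SD, n = 4 each). Mertk was at 0 in 3 of 4 PBS libraries. The ranges over the 4 PBS libraries overlapped between Fcgr1 and Fcgr2b, between Fcgr4 and Cd36 and between Cd36 and Clec7a, so the order within these pairs was not resolved. The other neighbours did not overlap. With coding length in place of exon length, a scale chosen after seeing the data, Fcgr2b (73.7 TPM) stood above Fcgr1 (46.0 TPM) without overlap, and the rest of the order stayed.

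**Figure D1:**
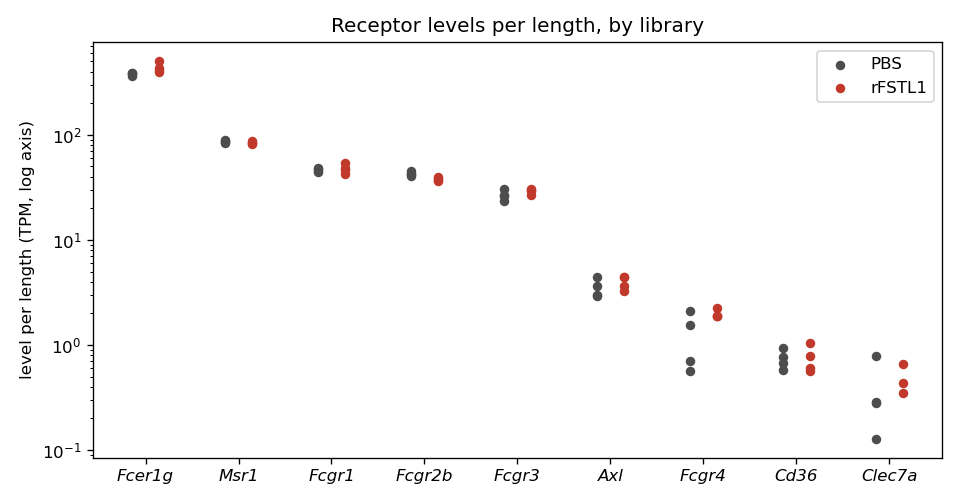
Level per length (TPM, log axis) of 9 receptor genes, ordered by their PBS mean, with a point for each of the 4 PBS (grey) and 4 rFSTL1 (red) libraries. Fcer1g, at a PBS mean of 378 TPM, lies far above Cd36 and Clec7a, which are under 1 TPM under PBS. Mertk and the 1 library with no Clec7a count cannot be drawn on a log axis.

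None of the receptor genes passed the test between rFSTL1 and PBS. Of the 10 genes, 8 had enough counts to be tested, and 0 had an adjusted p-value under 0.05 by the quasi-likelihood test of edgeR, adjusted over all genes by Benjamini-Hochberg. The background was 0.344% of all genes tested. DESeq2, which gave an adjusted p for 6 of the 8, called 0 of them, where it called 2.1% of all genes with an adjusted p. With a weight for each sample, limma voom called 0 of the 8, where it called 4.22% of all genes. An unadjusted p under 0.05 was found for 2 of the 8 by edgeR, against 15.9% of all genes tested. It was found for 2 of 6 by DESeq2, against 15.8%, and for 3 of 8 by limma voom, against 23.4%. The same 2 genes by edgeR, Fcer1g and Fcgr2b, were also those whose groups did not overlap, against 8.16% of all genes tested. The log2 fold change was positive for 6 of the 8, against 52.0% of all genes tested, and for Cd36 and Fcgr1 among them the sign turned when 1 library was left out. The median was 0.10, against 0.01 over all genes tested.

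**Figure D2:**
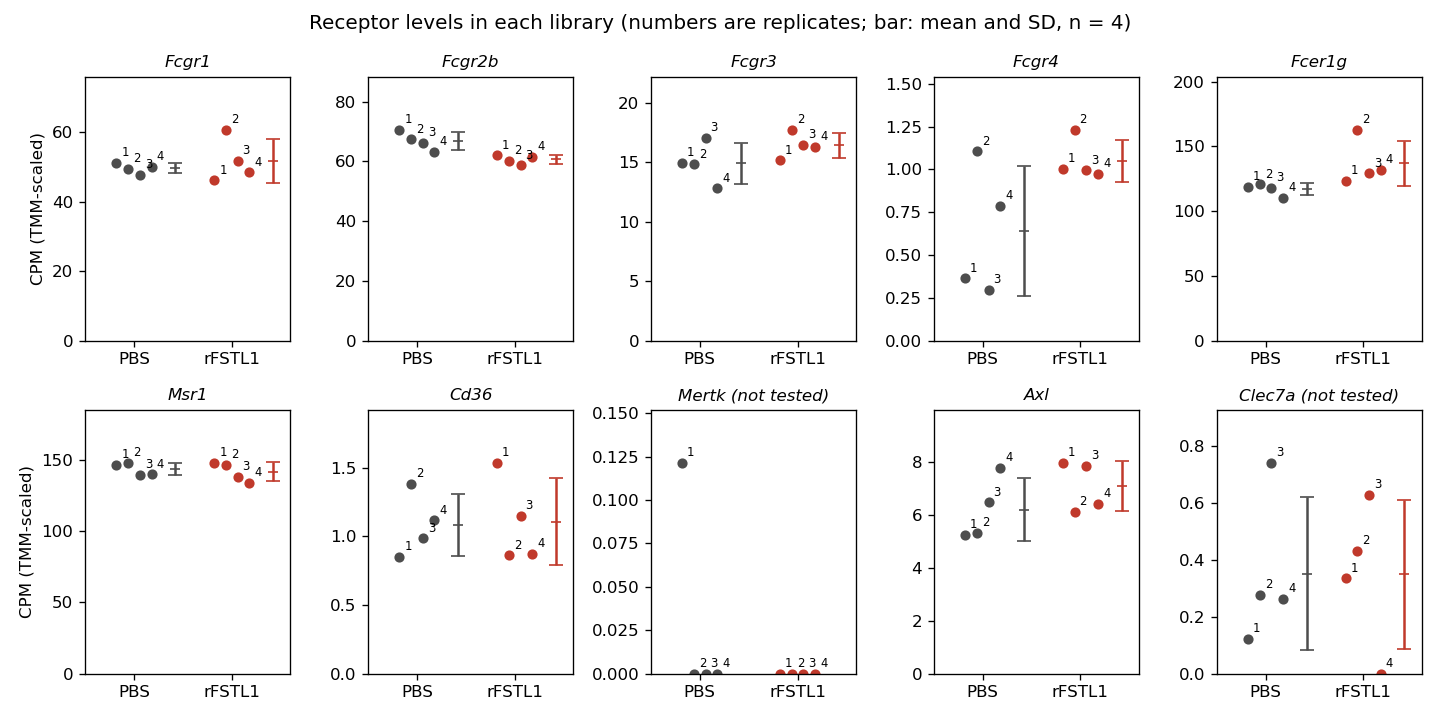
CPM of each of the 10 receptor genes in every library (points, numbered by replicate) with the mean and SD of each group (n = 4; no bar for Mertk). The groups are separate for Fcgr2b, lower under rFSTL1, and for Fcer1g, higher under rFSTL1, and rFSTL1 replicate 2 is the highest library for Fcgr1, Fcgr3, Fcgr4 and Fcer1g.

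Fcer1g had 118.7, 120.6, 117.9 and 110.1 CPM in PBS replicates 1 to 4. In rFSTL1 replicates 1 to 4 it had 123.7, 162.8, 129.3 and 131.8 CPM. Every rFSTL1 library lay above every PBS library, and replicate 2 stood well above the other 3. This gave a log2 fold change of 0.23 (standard error 0.07, 95% interval 0.08 to 0.38), a fold of 1.17. By edgeR, the p was 0.00508 unadjusted and 0.162 after Benjamini-Hochberg adjustment. A two-sided exact permutation test over the 70 assignments of the libraries gave p = 0.0286, the smallest that 4 against 4 libraries allow. Groups that do not overlap give this p whatever the gap, and 8.16% of all genes tested had such groups. Without rFSTL1 replicate 2, the log2 fold change was 0.13 (edgeR adjusted p = 0.138).

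Fcgr1 encodes the high-affinity receptor for IgG. It had 51.3, 49.5, 47.7 and 50.001 CPM in PBS replicates 1 to 4, and 46.1, 60.7, 51.7 and 48.4 CPM in rFSTL1 replicates 1 to 4. The groups overlapped, with both the lowest and the highest of the 8 values under rFSTL1. Its log2 fold change was 0.06 (95% interval -0.09 to 0.21, edgeR adjusted p = 0.716). Without rFSTL1 replicate 2 the sign turned, to -0.03.

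Fcgr3 encodes a low-affinity activating receptor. It had 14.9, 14.8, 17.1 and 12.8 CPM in PBS replicates 1 to 4, and 15.2, 17.7, 16.5 and 16.3 CPM in rFSTL1 replicates 1 to 4. PBS replicate 3 lay inside the rFSTL1 range, and the other PBS libraries lay below it. On the log2 scale the fold change was 0.13 (95% interval -0.06 to 0.33, edgeR adjusted p = 0.500). It was 0.07 without PBS replicate 4, 0.21 without PBS replicate 3 and 0.09 without rFSTL1 replicate 2.

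Fcgr4, an activating receptor for some IgG subclasses, had few counts in all libraries. It had 6, 20, 6 and 12 counts in PBS replicates 1 to 4 and 15, 20, 19 and 19 counts in rFSTL1 replicates 1 to 4. Scaled by library, PBS replicate 2 (1.11 CPM) lay within the rFSTL1 range of 0.975 to 1.23 CPM, while the other PBS libraries had 0.296 to 0.788 CPM. The log2 fold change of 0.72 had a wide 95% interval, from -0.07 to 1.52, and an edgeR adjusted p of 0.356. The log2 fold change was 1.16 without PBS replicate 2, 0.46 without PBS replicate 3 and 0.64 without rFSTL1 replicate 2.

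Among the 4 Fc gamma receptor genes and Fcer1g, Fcgr2b, which encodes the inhibitory receptor, was the one with a lower mean under rFSTL1. It had 70.6, 67.4, 66.2 and 63.3 CPM in PBS replicates 1 to 4, and 62.1, 60.3, 58.7 and 61.5 CPM in rFSTL1 replicates 1 to 4. Every rFSTL1 library lay below every PBS library, though PBS replicate 4 and rFSTL1 replicate 1 were close. Its log2 fold change was -0.14 (standard error 0.05, 95% interval -0.25 to -0.04), a fold of 0.906. By edgeR, the p was 0.0109 unadjusted and 0.206 after Benjamini-Hochberg adjustment. The two-sided exact permutation test gave p = 0.0286, which again only restates the lack of overlap.

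The separation did not hold once Fcgr2b and Fcgr3 were counted together. They were the 2 members with counts that were not whole numbers, for example 1162.23 and 245.77 in PBS replicate 1. The sum of both was whole, within 0.011 counts, in 4 of 4 PBS and 4 of 4 rFSTL1 libraries, running from 1156 in rFSTL1 replicate 1 to 1688 in PBS replicate 3. Fcgr3 took 17.5%, 18.04%, 20.5% and 16.8% of that sum in PBS replicates 1 to 4 and 19.6%, 22.7%, 21.9% and 21.0% in rFSTL1 replicates 1 to 4. PBS replicate 3 again lay inside the rFSTL1 range.

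Counted together as 1 feature, which was chosen once the data had been seen, the pair had 85.5, 82.3, 83.3 and 76.1 CPM in PBS replicates 1 to 4. In rFSTL1 replicates 1 to 4 it had 77.2, 78.0, 75.2 and 77.8 CPM. PBS replicate 4 now lay inside the rFSTL1 range, and the groups overlapped. For the pair, the log2 fold change was -0.09 (standard error 0.05, 95% interval -0.19 to 0.01, edgeR adjusted p = 0.379). How much of the difference in Fcgr2b came from the split of shared reads was not tested.

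**Figure D3:**
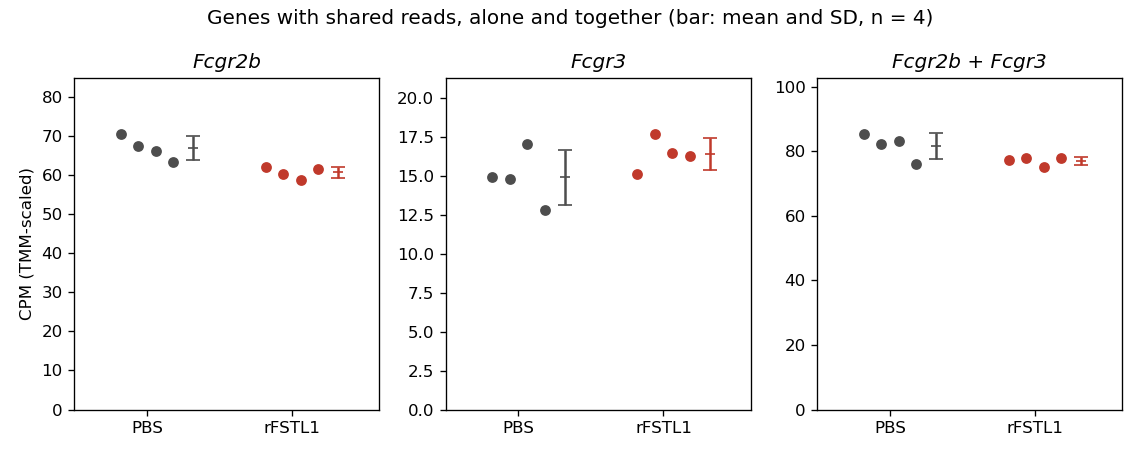
CPM of Fcgr2b, of Fcgr3 and of both counted together in the 4 PBS (grey) and 4 rFSTL1 (red) libraries, in order of replicate, with the mean and SD of each group. The groups are separate for Fcgr2b alone and overlap for Fcgr3 and for the sum, where PBS replicate 4 at 76.1 CPM lies among the rFSTL1 libraries.

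Within each library, the share of Fcgr2b among the 4 Fc gamma receptors was also computed per length. It was 37.3%, 36.3%, 35.7% and 36.1% in PBS replicates 1 to 4, and 35.3%, 29.6%, 31.8% and 33.8% in rFSTL1 replicates 1 to 4. The means were 36.3% ± 0.679 and 32.6% ± 2.46 (SD, n = 4 each). All rFSTL1 libraries lay below all PBS libraries by exon length and by coding length. By counts without length, rFSTL1 replicate 1 (49.9%) lay level with PBS replicate 4 (49.9%), and the groups overlapped. This share rests on the same split of reads, and no test was made of it.

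Msr1, the class A scavenger receptor, had 146.5, 147.6, 139.5 and 139.8 CPM in PBS replicates 1 to 4, and 147.7, 146.4, 138.1 and 133.7 CPM in rFSTL1 replicates 1 to 4. The groups overlapped. Its log2 fold change was -0.02 (95% interval -0.12 to 0.08, edgeR adjusted p = 0.862), so the interval holds folds from 0.923 to 1.05. Without rFSTL1 replicate 4 the log2 fold change was 0.0065. Cd36, a receptor for fatty acids and oxidized lipoprotein, had 14, 25, 20 and 17 counts in PBS replicates 1 to 4. In rFSTL1 replicates 1 to 4 it had 23, 14, 22 and 17 counts. Both groups ran over almost the same range. Its mean was 1.08 ± 0.227 CPM under PBS and 1.11 ± 0.317 CPM under rFSTL1 (SD, n = 4 each). Its log2 fold change of 0.01 had a 95% interval from -0.60 to 0.62 (edgeR adjusted p = 0.988), which holds folds from 0.662 to 1.54. Msr1 exceeded Cd36 per length by 94.2 to 152 times in the PBS libraries and by 84.9 to 149.9 times in the rFSTL1 libraries.

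Of the TAM kinases, Axl was detected and Mertk was not beyond the counting limit. Axl had 5.22, 5.31, 6.46 and 7.75 CPM in PBS replicates 1 to 4, and 7.95, 6.10, 7.85 and 6.42 CPM in rFSTL1 replicates 1 to 4. The PBS values spread over most of the range of both groups. Axl had a log2 fold change of 0.20 (95% interval -0.12 to 0.51, edgeR adjusted p = 0.539). It was 0.12 without PBS replicate 1 and 0.31 without PBS replicate 4. Mertk had 2 counts in PBS replicate 1 and 0 in each of the other 7 libraries. PBS replicate 1 also had the highest summed level of 6 fibroblast markers, 1.34 CPM. Such transcripts were also found in PBS replicate 2, which had 7 counts of Dcn, against 5 in PBS replicate 1, and no Mertk count. The part of fibroblast transcripts in the Mertk counts was not tested. A limit of 3 counts over the 4 rFSTL1 libraries allows up to 0.0430 CPM, and no fold is given because both groups were under 3 counts. This limit covers counting error only.

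Clec7a had 2, 5, 15 and 4 counts in PBS replicates 1 to 4 and 5, 7, 12 and 0 counts in rFSTL1 replicates 1 to 4. The totals were 26 and 24 counts, and the groups overlapped. It did not pass the expression filter and was not tested.

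**Figure D4:**
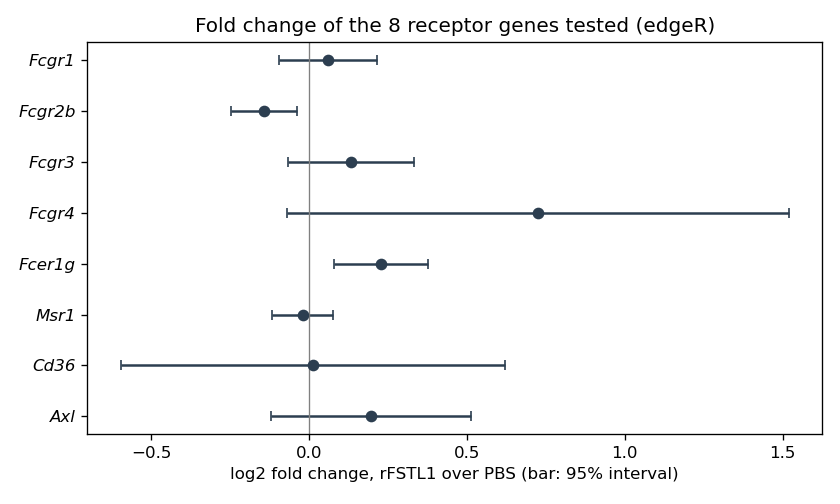
Log2 fold change of rFSTL1 over PBS (x axis) for the 8 receptor genes tested by edgeR, with 95% intervals. The intervals of Fcgr2b (-0.25 to -0.04) and Fcer1g (0.08 to 0.38) leave out 0 before adjustment, and those of Fcgr4 and Cd36 are the widest.

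Partner genes were read from lists of Fc receptors, signaling proteins, scavenger receptors, apoptotic-cell receptors and C-type lectins. Of 119 listed genes, 118 were in the table and 70 were tested, and 0 had an edgeR adjusted p under 0.05. An unadjusted p under 0.05 was found for 13 of the 70 by edgeR, 7 higher and 6 lower, against 15.9% of all genes. It was found for 12 of 63 by DESeq2, against 15.8%, and for 21 of 70 by limma voom, against 23.4%. DESeq2 called 0 of them, and limma voom called 1, Ptpn6 (limma adjusted p = 0.0460), where it called 4.22% of all genes. The groups did not overlap for 6 of the 70, against 8.16% of all genes. The median log2 fold change over the 70 was 0.01.

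Among 28 tested genes of ITAM and phagocytosis signaling, 12 had a positive and 16 a negative log2 fold change, with a median of -0.02. By an unadjusted edgeR p under 0.05, 2 were higher and 3 lower, against 15.9% of all genes tested in either direction. The groups did not overlap for 2 that were higher and 2 that were lower, against 8.16% of all genes tested. Tyrobp, which encodes DAP12, another ITAM adaptor of macrophages, had a mean of 254 ± 9.80 CPM under PBS and 276 ± 8.28 CPM under rFSTL1 (SD, n = 4 each). Ptpn6 encodes SHP-1, a phosphatase recruited by inhibitory motifs, and had 261 ± 9.23 and 286 ± 7.93 CPM (SD, n = 4 each). In both, all rFSTL1 libraries lay above all PBS libraries, with log2 fold changes of 0.12 and 0.13 (edgeR adjusted p = 0.207 and 0.169). Btk, a kinase of immune receptor signaling, and Nckap1l, a part of the actin-regulating WAVE complex, had all rFSTL1 libraries below all PBS libraries, with log2 fold changes of -0.11 and -0.03 (edgeR adjusted p = 0.221 and 0.753). Crk, an adaptor in engulfment signaling, had a log2 fold change of -0.15 (edgeR adjusted p = 0.221). Cdc42 and Dock2, regulators of the actin cytoskeleton and the tested genes with the highest CPM under PBS, had log2 fold changes of -0.07 and -0.06.

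Of the TAM and apoptotic-cell list, 20 genes were tested, with 9 positive and 11 negative log2 fold changes and a median of -0.01. By an unadjusted edgeR p under 0.05, 1 was higher and 2 were lower, against 15.9% of all genes tested in either direction. The groups did not overlap for 1 that was higher and 1 that was lower, against 8.16% of all genes tested. Gas6, the bridging ligand of Axl and Mertk, had 8.20, 7.14, 7.99 and 8.67 CPM in PBS replicates 1 to 4. In rFSTL1 replicates 1 to 4 it had 6.61, 5.67, 6.65 and 5.49 CPM. Every rFSTL1 library lay below every PBS library, with a log2 fold change of -0.39 (95% interval -0.64 to -0.14, edgeR adjusted p = 0.162). Mfge8, which bridges phosphatidylserine to integrins, had a log2 fold change of 0.19 (edgeR adjusted p = 0.174), again without overlap. Adam10, a protease that sheds surface receptors, had a log2 fold change of -0.14 (edgeR adjusted p = 0.286). It had 211.4 and 198.4 CPM in rFSTL1 replicates 3 and 4, while rFSTL1 replicate 2 (255.5 CPM) lay above all PBS libraries (243.0 to 254.9 CPM). Calr and Lgals3, the tested genes of this list with the highest CPM under PBS, had log2 fold changes of 0.06 and 0.12. Lgals3 was highest in rFSTL1 replicate 4, with 752.8 CPM against 566.9 to 666.8 CPM in the other rFSTL1 libraries. The third TAM kinase, Tyro3, had 12 counts in PBS replicate 1 and 0 to 6 in the other libraries, and was not tested.

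Many of the other receptors had too few counts to test. Of 23 genes listed as further scavenger receptors, 22 were in the table and 8 were tested, with a median log2 fold change of 0.05. The endocytic receptor Lrp1 had a log2 fold change of 0.14, the lipoprotein receptor Scarb1 0.11 and the lysosomal protein Scarb2 -0.09 (edgeR adjusted p = 0.300, 0.332 and 0.389). Lrp1 was highest in rFSTL1 replicate 4, with 974.7 CPM against 748.0 to 833.3 CPM in the other rFSTL1 libraries. The list also held Lox, which encodes lysyl oxidase and no scavenger receptor, and which was not tested. Cd68, with the highest CPM of this list under PBS, had 0.05. Marco and Cd163 had 0 counts in all 8 libraries, and Mrc1 had 2 to 6. Of 23 C-type lectins, 7 were tested, with a median of -0.02. Clec4d had a log2 fold change of 0.18, Clec10a 0.73 and Clec5a -0.13 (edgeR adjusted p = 0.226, 0.271 and 0.275), and Clec4e, a receptor for mycobacterial glycolipid, had -0.07. Clec10a rested on 11 to 37 counts. It had 1.94 and 1.85 CPM in rFSTL1 replicates 3 and 4, while replicates 1 and 2 (0.935 and 0.924 CPM) lay inside the PBS range of 0.723 to 0.987 CPM.

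Of 15 genes listed as further Fc receptors, 7 were tested, 6 with a positive log2 fold change, against 52.0% of all genes tested. Their median was 0.08. The list also held genes that encode no Fc receptor, among them B2m, Pirb and Lilrb4a. Fcgrt, the neonatal Fc receptor, had a log2 fold change of 0.32 (95% interval -0.26 to 0.90, edgeR adjusted p = 0.587), on 22 to 64 counts. B2m, its light chain and that of MHC class I, had a log2 fold change of 0.14 (edgeR adjusted p = 0.224). B2m was highest in rFSTL1 replicate 2, with 798.5 CPM against 673.7 to 701.5 CPM in the other rFSTL1 libraries. The inhibitory receptors Pirb and Lilrb4a had log2 fold changes of 0.08 and 0.06.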

How the data were processed

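RNA-seq of RAW264.7 cells was analysed for 8 libraries, 4 under PBS and 4 under rFSTL1, grouped by the treatment label. The authors deposited expected counts (estimated counts) for 22013 genes, without normalization, and 10.8% of genes had a value that was not whole. The submitters' processing notes name Bowtie2 2.2.8, HISAT2, StringTie 1.3.1 and DESeq2, without roles. The genome build and the tool that shared reads between genes are not given in the sources used here. The design assumed estimated counts could be handled as counts, and they were rounded.

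Genes were kept by filterByExpr (minimum count 10), scaled by TMM and compared with edgeR 4.0.16 (glmQLFit and glmQLFTest, R 4.3.3), with a threshold of 0.05 after Benjamini-Hochberg adjustment over all genes. Standard errors were the log2 fold change over the root of F, with 95% intervals. Exact permutation tests used log2(CPM + 1). TPM values used merged exon lengths of GENCODE M21 basic transcripts, found for 99.2% of genes and all 10 members. Sequences came from the GENCODE M21 transcripts. Alternatives were DESeq2 1.42.0, limma 3.58.1 voom with weights for each sample, scaling by library totals or upper quartiles, other filters, a threshold of 0.1, a replicate block and leaving out each library. The test was checked on simulated counts.

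The members and gene lists were chosen with earlier results of these data known. Named are the members and, in each list, every called gene, the 3 with the smallest p and the 2 with the highest mean CPM under PBS. For each cell type the marker with the highest mean CPM under PBS is named. Adgre1, Btk, Nckap1l, Lox, Tyro3, Mrc1, Marco and Cd163 fall outside that rule and were named after their values were seen. A ratio of Mertk to Axl was not computed, since Mertk was at 0. No pair of libraries in a group was a duplicate (chi-square per degree of freedom at least 3.03).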

Additional observations from a re-analysis of the deposited data

Results flagged for a closer look

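Of the values described, 2 stood far from the other libraries of their group by Dixon's test at its 95% limit, out of 19 groups of 4 tested, where chance gives about 1 in 20. Fcgr4 had 1.23 CPM in rFSTL1 replicate 2, against 0.975 to 1.00 CPM in the other rFSTL1 libraries, a gap of few counts. Mertk had 0.121 CPM in PBS replicate 1, which is 2 counts, against 0 in the other PBS libraries. With 0 in all the others, any count at all would have been flagged, so the rate of 1 in 20 does not apply to it. No explanation of either was tested.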

How the results depend on the processing

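The number of receptor genes past the threshold was 0 under all 17 alternatives, including counting Fcgr2b and Fcgr3 together, which was added after seeing the data. Over them, the edgeR, DESeq2 or limma adjusted p of Fcer1g was 0.0655 to 0.381 and its log2 fold change 0.13 to 0.27. For Fcgr2b alone they were 0.0652 to 0.453 and -0.17 to -0.12, and the log2 fold change of both genes together was -0.09. Fcgr2b, Fcgr3, Fcgr4, Fcer1g and Axl kept their direction wherever fitted. Leaving out 1 library moved the log2 fold change of Cd36 from -0.17 to 0.15, of Fcgr1 from -0.031 to 0.10 and of Msr1 from -0.047 to 0.0065. The direction turned for Cd36 without PBS replicate 1 (-0.09) or 3 (-0.04) or rFSTL1 replicate 1 (-0.17) or 3 (-0.01), for Fcgr1 without rFSTL1 replicate 2 (-0.031) and for Msr1 without rFSTL1 replicate 4 (0.0065). The count over all genes, 37 by edgeR, was 192 by DESeq2, 454 by limma voom, 56 with upper-quartile scaling, 127 on all genes with at least 1 count, 133 at a threshold of 0.1 and 11 to 99 without 1 library, lowest without PBS replicate 2 and highest without rFSTL1 replicate 1. The partner genes had 1 call by limma voom. The cause was not tested.

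Same-numbered libraries did not vary together: the correlations of their deviations were -0.090, 0.085, -0.013 and 0.001. With the replicate block, 41 genes and 0 receptor genes were called, and the log2 fold changes of Fcer1g and Fcgr2b were 0.22 and -0.14. Fcgr4, Cd36, Clec7a and Mertk never exceeded 25 counts in a library, and the part of depth in their spread was not tested.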
